A study of Mus musculus with 8 samples.

Results

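Goblet cells and Paneth cells are the secretory lineages of the small intestine that share a progenitor, and goblet cells fill their granules with mucus proteins while Paneth cells fill theirs with antimicrobial peptides. The 6 genes described here, Spink4, Tff3, Agr2, Muc2, Fcgbp and Zg16, code for secreted or secretory-pathway products that are best known from goblet cells. They were chosen by symbol, each symbol matched 1 gene ID, and they make up 6 of 55414 genes in the count table. Their mRNA levels were followed in Paneth cells sorted from C57BL/6J mice. All animals drank Milli-Q (ultrapure) water for 7 days, plain in the water group and with 25 mM ZnSO4 in the zinc group. There were 4 mice in each group and 1 library per mouse. Cells came from a suspension of the small intestine and were collected by fluorescence-activated sorting. The labels name no genetic change, and the sources used here give neither the age of the mice nor the day of sorting.

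Muc2 is the gel-forming mucin that builds the intestinal mucus layer. Agr2 is a disulfide isomerase of the endoplasmic reticulum that is needed for Muc2 folding. Fcgbp is a large protein bound into the mucus gel, Tff3 is a trefoil peptide that takes part in epithelial repair, and Zg16 is a lectin that binds the cell wall of Gram-positive bacteria. Spink4 has a Kazal-type domain, the fold of many serine protease inhibitors. The gel depends on mucin polymers that are folded in the endoplasmic reticulum, decorated with O-linked sugars in the Golgi and packed into granules.

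Both groups were first checked on the metallothioneins, metal-binding proteins that are induced by zinc. Mt1 was between 13.7 and 29.1 CPM (counts relative to the library size, after TMM scaling in edgeR) in the water group and between 189 and 425 CPM in the zinc group. For Mt2 the ranges were 2.15 to 7.32 and 205 to 455 CPM. Both passed the edgeR test described below (log2 fold change 3.65 and 6.15, adjusted p = 0.0259 and 0.0198). Library totals ran from 20760764 to 24117111 counts. The markers of Paneth cells dominated every library: the 17 matched genes of that list held 49.7 to 63.8% of the counts in the water group and 47.9 to 63.0% in the zinc group. The TMM factors differed between libraries, from 0.764 to 1.23, and were lower where the share of all Defa (alpha-defensin) genes was higher. That share was 39.9% in water replicate 1 and 29.2% in water replicate 4, and 38.5% in zinc replicate 1 and 27.9% in zinc replicate 4. Values that depend on this scaling are therefore also given per library total, or as the TPM defined below, where the picture changes. In bulk RNA, fewer cells of a type and less RNA per cell cannot be told apart.

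The 6 genes lie on 4 chromosomes of GRCm39. Muc2 is at chr7:141276583-141308430, Fcgbp at chr7:27770661-27820287 and Zg16 at chr7:126649302-126686500, a span that includes distant exons of other annotated transcripts, while its canonical transcript covers only chr7:126649302-126651847. Tff3 lies at chr17:31344280-31348620, Agr2 at chr12:36042904-36054086 and Spink4 at chr4:40920044-40931396. Zg16 and Tff3 are on the minus strand and the other 4 genes on the plus strand. Their annotated canonical transcripts code for proteins of very different length: 81 residues for Tff3, 135 for Spink4, 167 for Zg16, 175 for Agr2, 2583 for Fcgbp and 4576 for Muc2. Zg16 is overlapped on the opposite strand by the non-coding genes Gm44939 and Gm22747, both with 0 counts, and no annotated gene overlaps any of the other 5.

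The 250 bases before the transcript start are shown for 3 of the genes. Fcgbp and Zg16 are shown because their levels varied together between mice, and Muc2 because its window, like that of Fcgbp, held an E-box. Each sequence is written in the direction of transcription, and capitals mark an E-box with the letters CAGCTG, a motif bound by basic helix-loop-helix factors such as Atoh1. The Fcgbp sequence is chr7:27770411-27770660 (plus strand), the Muc2 sequence chr7:141276333-141276582 (plus strand) and the Zg16 sequence chr7:126651848-126652097 (minus strand), all read from GRCm39 at the canonical transcript start of GENCODE M39.
Fcgbp promoter: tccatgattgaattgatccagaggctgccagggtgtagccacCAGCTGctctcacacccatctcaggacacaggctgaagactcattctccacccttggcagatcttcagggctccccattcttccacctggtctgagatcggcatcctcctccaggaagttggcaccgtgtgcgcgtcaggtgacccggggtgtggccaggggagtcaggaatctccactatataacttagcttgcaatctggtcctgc
Muc2 promoter: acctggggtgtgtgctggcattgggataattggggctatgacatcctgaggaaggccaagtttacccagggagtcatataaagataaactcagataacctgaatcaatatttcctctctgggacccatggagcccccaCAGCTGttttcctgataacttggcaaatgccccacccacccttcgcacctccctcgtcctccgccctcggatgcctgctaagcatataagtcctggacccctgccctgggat
Zg16 promoter: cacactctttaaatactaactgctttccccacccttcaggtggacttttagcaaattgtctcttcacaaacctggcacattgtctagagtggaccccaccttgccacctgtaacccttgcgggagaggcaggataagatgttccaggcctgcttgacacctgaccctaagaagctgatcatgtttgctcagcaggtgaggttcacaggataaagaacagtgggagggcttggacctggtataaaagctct

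Over the window of 300 bases from 250 before to 50 after the start, CAGCTG was found once in Fcgbp, 208 bases before the start, and once in Muc2, 112 bases before the start. It was not found in the windows of Zg16, Tff3 and Agr2. Of the 21757 protein-coding promoters of the same length, 14.9% held it. The core of the metal response element, which the zinc sensor Mtf1 binds, was searched as TGCACNC and TGCGCNC on both strands. It was found in 27.4% of all promoters and in 0 of the 5 windows searched, those of Fcgbp, Muc2, Zg16, Tff3 and Agr2. These are matches of letters only, and a window without them says nothing about a factor.

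The level of each mRNA was compared between genes per transcript length, as TPM (counts divided by merged exon length and scaled to the same sum in each library). Spink4 was by far the most abundant, with a mean of 9205 ± 1108 TPM (SD, n = 8), and ranked 11 among all genes. Tff3 followed with 1494 ± 414 TPM (rank 26) and Agr2 with 747 ± 408 TPM (rank 34). Muc2 had 157 ± 60.9 TPM (rank 73), Fcgbp 93.7 ± 61.8 TPM (rank 117) and Zg16 38.1 ± 55.4 TPM (rank 309). The level of Zg16 depends on its length, since its merged exons add up to 1409 bases and its longest transcript to 786. With the longest transcript of every gene as length it had 63.99 ± 92.9 TPM (rank 222), Agr2 1042 ± 563 TPM and Fcgbp 117 ± 76.3 TPM, and the order of the 6 was the same. All 6 mRNAs were thus detected in every library, with the fewest counts, 139, for Zg16 in zinc replicate 1. For comparison, the Paneth cell products Defa24, Lyz1 and Itln1 had mean levels of 381084, 118080 and 54821 TPM, which are 41.4, 12.8 and 5.96 times that of Spink4.

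**Figure D1:**
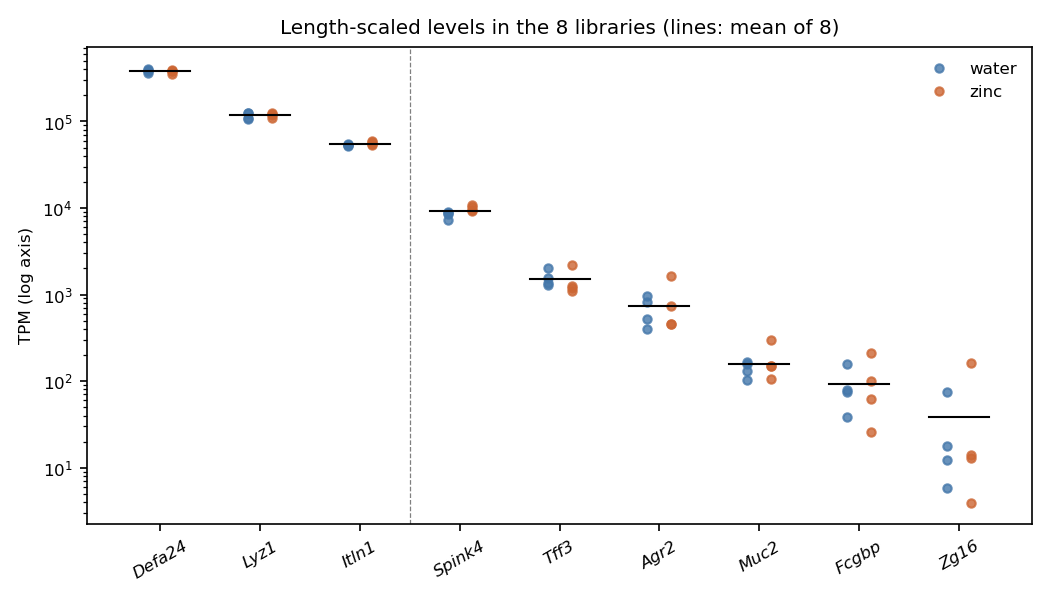
TPM (log axis) of the 3 Paneth cell products Defa24, Lyz1 and Itln1 and of the 6 genes in each of the 4 water (blue) and 4 zinc (orange) libraries, with the mean of the 8 libraries as a line. The 6 genes span from 9205 TPM for Spink4 to 38.1 TPM for Zg16, and the spread between libraries is widest for Zg16.

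Each gene was compared with the next one in this order by an exact two-sided sign-flip permutation test on the log2 TPM ratio within libraries, whose smallest possible p with 8 libraries is 0.0078. The order came from the same 8 libraries, so the test is not independent evidence for it. Nor does it cover the choice of gene length. The 5 neighbour comparisons were adjusted together by the Benjamini-Hochberg method. Spink4 exceeded Tff3 in 8 of 8 libraries by a mean log2 ratio of 2.66 ± 0.37 (SD), Tff3 exceeded Agr2 by 1.11 ± 0.44, Agr2 exceeded Muc2 by 2.17 ± 0.37 and Fcgbp exceeded Zg16 by 2.10 ± 0.91. These 4 comparisons each had the smallest p that the exact test can give (adjusted p = 0.00977). Muc2 exceeded Fcgbp in 7 of 8 libraries by 0.95 ± 0.63 (exact permutation, adjusted p = 0.0156). The exception was water replicate 4, where Fcgbp reached 159 and Muc2 157 TPM. With the longest transcript as length, Tff3 exceeded Agr2 by only 0.54 ± 0.44 and Fcgbp exceeded Zg16 by 1.66 ± 0.91, each in 7 of 8 libraries (exact permutation, adjusted p = 0.0195), with zinc replicate 4 as the exception. Muc2 exceeded Fcgbp by 0.55 ± 0.63 on that scale (7 of 8 libraries, exact permutation, adjusted p = 0.0469).

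The order by TPM is not the order by reads, because the transcripts differ in length. By counts without length scaling, Muc2 came after Spink4, with ranks 24 and 12 among all genes, and Agr2 (35), Fcgbp (38) and Tff3 (48) followed, before Zg16 (1677). On that scale the log2 ratio of Tff3 to Agr2 was -0.27 ± 0.44 (exact permutation, adjusted p = 0.156) and that of Agr2 to Muc2 was -1.20 ± 0.37. In all, the 6 genes took 1.13, 1.16, 0.919 and 1.17% of the counts with water (replicates 1 to 4) and 1.10, 1.22, 1.13 and 1.62% with zinc. The means were 1.10 ± 0.119% in the water group and 1.27 ± 0.238% in the zinc group, and the groups overlapped. Wilson 95% intervals of single shares were at most from 1.61 to 1.62% (zinc replicate 4) and cover counting error only. Spink4 alone made up 49.1 to 65.4% of these counts in the water group and 44.1 to 69.5% in the zinc group, with the lowest share in both groups in replicate 4.

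Zinc was then compared with water. None of the 6 mRNAs passed the threshold of an adjusted p below 0.05 in edgeR's quasi-likelihood test (0 of 6, with 0 at an unadjusted p below 0.05), and limma-voom and DESeq2, which gave no p for Zg16, also called 0. Over all 11988 genes tested, 10 were called, 3 higher and 7 lower with zinc, which is 0.0834% of the tested genes. The adjusted p was 0.998 for each of the 6. The median log2 fold change of the 6 was 0.19, against 0.01 over all tested genes. With 4 mice per group the intervals were wide for some members and narrow for others, as the following values show.

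**Figure D2:**
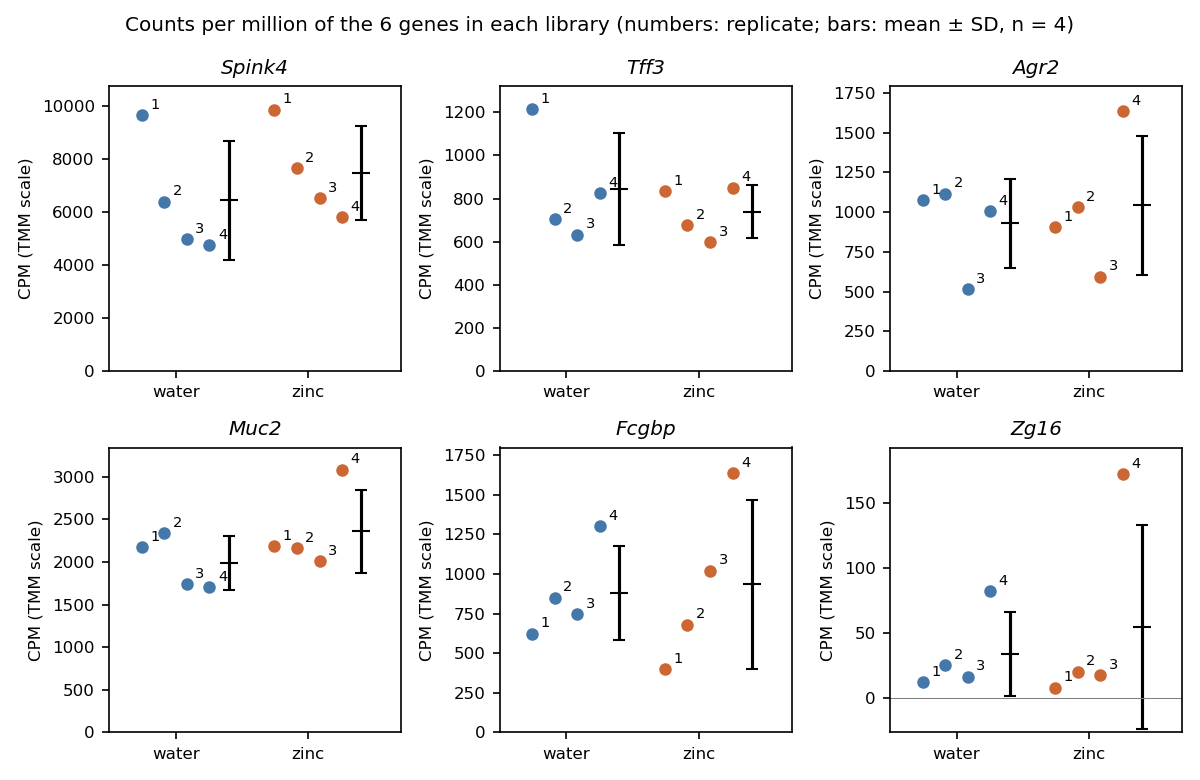
CPM (TMM scale) of each of the 6 genes in the 4 water (blue) and 4 zinc (orange) libraries, numbered by replicate, with the group mean ± SD in black (n = 4). The groups overlap in all 6 panels, and zinc replicate 4 is the highest library for Agr2, Muc2, Fcgbp and Zg16.

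Spink4 measured 9656, 6404, 4976 and 4750 CPM with water (replicates 1 to 4, the order used throughout) and 9876, 7662, 6534 and 5824 CPM with zinc. Both libraries numbered 1 were high and the groups overlapped on this scale. The log2 fold change was 0.21 (SE 0.26, 95% interval -0.33 to 0.75). On the TPM scale, in contrast, Spink4 was 8883, 8836, 7294 and 8553 in the water group and 9351, 10269.5, 9506 and 10945 in the zinc group, so that all 4 zinc libraries exceeded all 4 water libraries. It was the only 1 of the 6 without overlap on that scale, where 0.618% of 11977 tested genes showed none, in either direction. Per library total the groups overlapped, since water replicate 1 had 0.737% of counts and zinc replicate 3 had 0.686%. With library totals as the only scaling, edgeR gave a log2 fold change of 0.23 (SE 0.17, adjusted p = 1.00), and Spink4 was not called. The groups were not tested on the TPM scale.

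Tff3 was the only member with a negative fold change. It measured 1216, 705, 633 and 825 CPM with water and 833, 676, 596 and 851 CPM with zinc. In CPM, water replicate 1 was the highest library, and the other 7 libraries of both groups lay between 596 and 851 CPM. In TPM and per library total, zinc replicate 4 was the highest instead, with 2205 TPM and 0.104% of counts. Water replicate 4 had 2050 TPM and 0.100%, and water replicate 1 had 1543 TPM and 0.0928%. The log2 fold change was -0.19 (SE 0.19, 95% interval -0.60 to 0.21), and without water replicate 1 it was 0.03.

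Muc2, the mucin itself, varied least of the 6 in CPM, but not in TPM or per library total, as given below. It measured 2174, 2336, 1738 and 1702 CPM with water and 2186, 2165, 2013 and 3085 CPM with zinc. Only zinc replicate 4 lay above the range of the water group. Its log2 fold change was 0.25 (SE 0.19, 95% interval -0.14 to 0.64), and it was 0.09 without zinc replicate 4. Agr2, its folding enzyme, varied more, with 1076, 1116, 517 and 1005 CPM with water and 907, 1030, 594 and 1636 CPM with zinc. Both libraries numbered 3 were the lowest of their group and zinc replicate 4 was the highest of all 8. The log2 fold change of Agr2 was 0.17 (SE 0.32, 95% interval -0.55 to 0.88), and -0.14 without zinc replicate 4.

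Fcgbp measured 624, 851, 746 and 1305 CPM with water and 401, 681, 1022 and 1636 CPM with zinc. Replicate 4 was the highest and replicate 1 the lowest library in both groups. Between the groups the log2 fold change was 0.08 (SE 0.44, 95% interval -0.96 to 1.13), and it turned to -0.34 without zinc replicate 4.

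Zg16, the least abundant of the 6, varied the most. It measured 12.6, 25.3, 16.6 and 82.1 CPM with water and 8.25, 20.4, 17.7 and 172 CPM with zinc, from 202, 588, 393 and 2149 counts and 139, 423, 447 and 4432 counts. Replicate 4 was far above the other libraries in both groups. Zinc over water gave a log2 fold change of 0.67 (SE 1.15, 95% interval -2.11 to 3.46), which allows a change of more than a doubling in either direction. Without zinc replicate 4 it was -1.15 (SE 0.82), and without both libraries numbered 4, a choice made after seeing the data, it was -0.24 (SE 0.37).

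**Figure D3:**
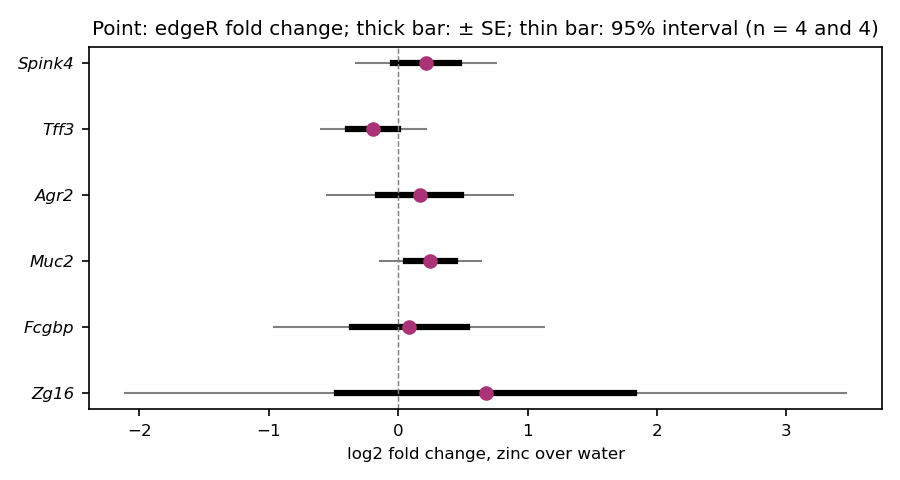
log2 fold change of the 6 genes, zinc over water, from edgeR (4 and 4 libraries), with the SE as a thick bar and the 95% interval as a thin bar. The interval spans 0 for each gene and widens from Muc2 (-0.14 to 0.64) to Zg16 (-2.11 to 3.46).

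The members differed in how much they varied between mice. The SD of log2(CPM + 0.5) over the 8 libraries was 0.27 for Muc2, 0.33 for Tff3, 0.40 for Spink4, 0.53 for Agr2, 0.64 for Fcgbp and 1.43 for Zg16. The median over all tested genes was 0.24. Muc2 therefore varied more than 59.9% of tested genes, but Fcgbp more than 97.2% and Zg16 more than 99.9%. Between the highest and the lowest library, CPM differed 1.81-fold for Muc2, 2.04-fold for Tff3 and 2.08-fold for Spink4. The same ratio was 3.17 for Agr2, 4.08 for Fcgbp and 20.8 for Zg16. The place of Muc2 depended on the scale. In TPM its ratio was 2.898, above the 2.027 of Tff3, and Spink4 varied least, from 7294 to 10945 TPM. Per library total Muc2 ran from 0.166 to 0.378% of counts and Spink4 from 0.530 to 0.765%. In CPM, zinc replicate 4 was the highest library for 4 of the 6 genes (Muc2, Agr2, Fcgbp and Zg16), while it was the highest for 13.8% of all tested genes. In TPM it was the highest for each of the 6, a scale on which the share over all genes was not counted.

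Whether the 6 mRNAs varied together was asked with Pearson's r and Spearman's rho of log2(CPM + 0.5) over the 8 libraries, for 15 pairs, with exact permutation tests over all pairings of the 8 libraries. After adjustment over the 15 pairs, 1 pair passed. Fcgbp and Zg16 correlated with r = 0.91 (exact permutation p = 0.000719, adjusted p = 0.0108) and rho = 0.88 (exact permutation p = 0.00724, adjusted p = 0.109). With group means subtracted r was 0.91, per library total it was 0.93 and without the 2 libraries farthest from the median of Fcgbp, zinc replicates 1 and 4, it was 0.83 (exact permutation, adjusted p = 0.260). Over the 6 libraries that remained without both numbered 4 it was 0.82 (exact permutation, adjusted p = 0.354). The sign therefore held, but the adjusted p rested in part on single libraries, since without water replicate 1, zinc replicate 1 or zinc replicate 4 it was 0.0625, 0.0744 and 0.153 in the exact test.

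Muc2 and its folding enzyme Agr2 correlated with r = 0.75 and rho = 0.74 (exact permutation p = 0.0301 and 0.0458, adjusted p = 0.165 and 0.229). This pair missed the threshold, and r was 0.91 without zinc replicate 4 and water replicate 4, the libraries farthest from the median of Muc2 (exact permutation, adjusted p = 0.104). It was 0.92 when only water replicate 4 was left out (exact permutation, adjusted p = 0.0208) and 0.54 without zinc replicate 4. Spink4 ran against Fcgbp (r = -0.75 and rho = -0.79, exact permutation, adjusted p = 0.165 and 0.209) and Zg16 (r = -0.64 and rho = -0.69, exact permutation, adjusted p = 0.301 and 0.260), neither past the threshold. Without the 2 farthest libraries these r were -0.70 and -0.65. These values depended on the scale, as r per library total was -0.41 for Spink4 with Fcgbp and -0.27 for Spink4 with Zg16. On that scale r was higher for each pair except Muc2 with Spink4 and Tff3 with Spink4, but Fcgbp with Zg16 was still the only pair past the threshold. It was 0.77 in place of 0.23 for Muc2 with Fcgbp and 0.84 in place of 0.39 for Muc2 with Zg16 (exact permutation, adjusted p = 0.0592 and 0.0527). Zg16 with Agr2 had 0.82 in place of 0.58 and Muc2 with Agr2 0.82 in place of 0.75 (exact permutation, adjusted p = 0.0527 for both). Tff3 with Zg16 had 0.71 in place of 0.05, and Tff3 with Fcgbp turned from -0.14 to 0.54 (exact permutation, adjusted p = 0.114 and 0.281).

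**Figure D4:**
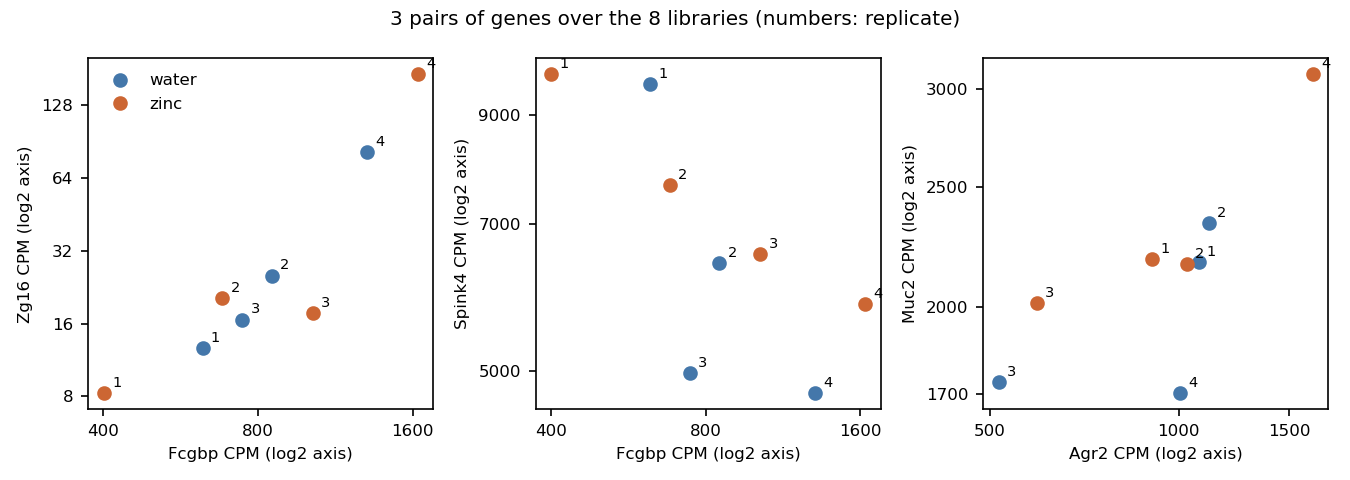
CPM of Zg16 against Fcgbp (left), Spink4 against Fcgbp (middle) and Muc2 against Agr2 (right) in the 8 libraries, numbered by replicate, water in blue and zinc in orange, on log2 axes. Zg16 and Fcgbp rise together (r = 0.91), Spink4 tends to be lower where Fcgbp is higher (r = -0.75) and Muc2 tends to be higher where Agr2 is higher (r = 0.75).

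The genes whose pattern over the 8 libraries was most like that of each member were looked up among 6785 tested genes with a mean of at least 10 CPM. The r values are given as a description, since the highest of so many r over 8 libraries is high by selection. For Muc2 these were Sptlc1 (r = 0.99), Rpa1 (0.96) and Txndc5 (0.94). Txndc5 is a protein disulfide isomerase, and for Agr2 the list Minpp1 (0.96), Pdia3 (0.95) and Tmem97 (0.95) held another, Pdia3. Tff3 was followed by Ugp2 (0.97), Atp6ap2 (0.97) and Erln (0.95), where Ugp2 makes UDP-glucose for glycosylation. Fcgbp was followed by Smad4 (0.98), Tbc1d5 (0.97) and Rnf145 (0.97). Zg16 was followed by Lgals2 (0.97), Anxa2 (0.95) and Pafah1b3 (0.95), of which Lgals2 is a galectin that measured 253 to 546 CPM. Spink4 was followed by Vps35 (0.98), Dnajc12 (0.98) and Acad11 (0.98). No gene was named for more than 1 member.

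Other genes of the goblet cell were followed on a list of 25, of which 25 were tested and 0 called, 0 in each direction, with 2 at an unadjusted p below 0.05 and a median log2 fold change of 0.05. Its most abundant members were Ccl6 (1779 TPM), a chemokine, Guca2a (1063 TPM), the peptide guanylin, Ccl9 (85.4 TPM) and Atoh1 (44.1 TPM), the transcription factor that directs cells to the secretory lineage. The smallest p was that of Nlrp6, an inflammasome sensor that acts in mucus secretion, at -0.35 on the log2 scale (edgeR adjusted p = 0.881, SE 0.12). The summed share of this list was 0.496 to 0.576% of counts in the water group and 0.511 to 0.655% in the zinc group. Without Ccl6, a choice made after seeing the data, it was 0.203, 0.218, 0.179 and 0.276% with water and 0.177, 0.227, 0.180 and 0.327% with zinc, highest in replicate 4 of both groups.

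Clca1, a metalloprotease that is secreted with Muc2, was chosen for description after its values were seen. It measured 11.4, 16.6, 19.7 and 238 CPM with water and 5.52, 16.1, 24.3 and 124 CPM with zinc. Like Zg16 and Fcgbp it was highest in replicate 4 and lowest in replicate 1 of both groups. Its highest library was water replicate 4, whereas that of Zg16 and Fcgbp was zinc replicate 4. Over the same 8 libraries the goblet genes Atoh1 and Guca2a ranged from 79.0 to 117 and from 350 to 840 CPM. The 25 genes of the goblet list did not share 1 pattern in CPM. Of them, 9 were highest in zinc replicate 4, 8 in water replicate 1 and 2 in water replicate 4. The shares of all tested genes highest in these libraries were 13.8, 16.7 and 13.7%. In water replicate 4, 7 of the 8 tested tuft cell genes were also highest, against 13.7% of all tested genes. In zinc replicate 4, the highest library of Zg16 and Fcgbp, 1 of the 8 was highest, against 13.8% of all tested genes. The summed share of the tuft cell list was 0.0191% in water replicate 4, against 0.00147% in the lowest water library. It was 0.00194 to 0.0113% in the zinc group. The part of other cells in the values of Zg16 and Fcgbp was not tested.

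**Figure D5:**
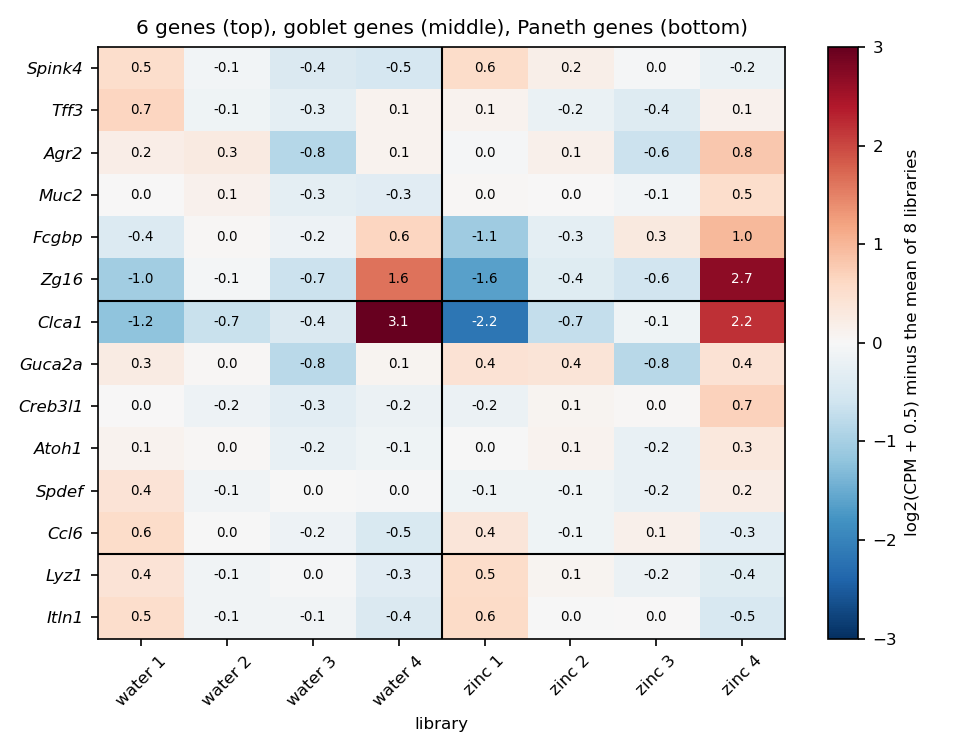
log2(CPM + 0.5) of each gene in each library minus its mean over the 8 libraries, water left and zinc right of the vertical line. The 6 genes are at the top and 2 Paneth cell genes at the bottom. The middle holds Clca1, Guca2a, Atoh1, Spdef and Ccl6 of the goblet cell list and Creb3l1 of the mucin glycosylation and folding list. Zg16 stands 1.6 and 2.7 above its mean in water and zinc replicate 4, and Clca1 stands 3.1 and 2.2 above its own. Lyz1 and Itln1 are lower in those libraries than in both numbered 1 on this CPM scale only. In TPM, Lyz1 had 124324 and 126019 in water and zinc replicate 4, against 105959 and 119325 in water and zinc replicate 1. Itln1 had 53860 and 54216 TPM, against 53427 and 57162.

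The machinery that folds and glycosylates mucins was followed at the mRNA level on another list. Of 31 genes on that list 28 were tested and 0 called, 0 in each direction, with 2 at an unadjusted p below 0.05 and a median log2 fold change of 0.03. The most abundant were C1galt1c1 (57.6 TPM), the chaperone of the core 1 synthase, the initiating transferases Galnt12 (52.3 TPM) and Galnt7 (39.6 TPM), and the transcription factor Creb3l1 (49.4 TPM). Creb3l1 had the smallest p of the list, with 129, 115, 103 and 113 CPM in the water group and 114, 136, 132 and 206 CPM in the zinc group. The difference was 0.36 on the log2 scale (edgeR adjusted p = 0.998, SE 0.16), and zinc replicate 4 was again the highest library. St6galnac1, a sialyltransferase, and Tgm3, a transglutaminase, had 0 counts in all 8 libraries, which allows at most 0.114 to 0.188 CPM per library. The summed share of the list was 0.190 to 0.251% in the water group and 0.180 to 0.318% in the zinc group.

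Relatives of the 6 genes were mostly low. Of 22 listed paralogs 21 were matched, 7 were tested and 0 called, 0 in each direction, with 0 at an unadjusted p below 0.05 and a median log2 fold change of -0.04. The transmembrane mucin Muc13 was the most abundant, at 371 TPM, above the 157 TPM of Muc2. Muc3a, another transmembrane mucin, measured 15.2 TPM, Txndc12, a relative of Agr2 in the endoplasmic reticulum, 10.6 TPM and Agr3 6.12 TPM. The summed share of the list was 0.108 to 0.160% in the water group and 0.0988 to 0.133% in the zinc group. The smallest p was that of Muc4 (-0.61 on the log2 scale, edgeR adjusted p = 0.998, SE 0.27). The gel-forming mucins of the stomach and airways, Muc5ac and Muc5b, had 0 counts in all libraries, as did Spink5, Spink6, Spink7, Spink8 and Spink10. Muc6, another gel-forming mucin, was at 0.01 TPM, so that Muc2 was the only one above 1 TPM among the gel-forming mucins looked up. Of the mucins looked up, Muc13, Muc2, Muc3a and Muc4 had a mean above 1 TPM. Mucins outside the list were not examined.

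Of the markers of cells other than goblet and Paneth cells, those of stem and dividing cells were the most abundant. All 10 genes of that list were tested and 0 called, with a summed share of 0.350 to 0.735% of counts in the water group and 0.367 to 0.420% in the zinc group, led by Olfm4 (1356 TPM) and Smoc2 (18.4 TPM). Olfm4, a gene of crypt base stem cells, was thus above Agr2, Muc2, Fcgbp and Zg16 in mean TPM, and its part in the levels of the 6 genes was not tested. The remaining lists of cells other than goblet and Paneth cells took smaller shares. Of 14 enterocyte genes 11 were tested and 0 called, with a summed share of 0.0470 to 0.0651% in the water group and 0.0443 to 0.0669% in the zinc group, led by Anpep (65.3 TPM) and Fabp2 (49.7 TPM). Of 14 enteroendocrine genes 9 were tested and 0 called, at 0.00349 to 0.0122% and 0.00355 to 0.0120%, led by Sct (40.2 TPM) and Chgb (6.44 TPM). Of 10 tuft cell genes 8 were tested and 0 called, at 0.00147 to 0.0191% and 0.00194 to 0.0113%, led by Avil (4.55 TPM) and Trpm5 (2.79 TPM). Of 12 immune genes 2 were tested and 0 called, at 0.00192 to 0.00269% and 0.00165 to 0.00245%, led by Lyz2 (6.03 TPM) and Itgam (0.08 TPM), while Cd3e, Cd3g, Cd8a and Cd52 had 0 counts. Of 10 stromal and vascular genes 0 passed the count filter, at 4.80e-05 to 0.000140% and 3.37e-05 to 6.22e-05%, led by Vim (0.09 TPM) and Des (0.03 TPM), and Col1a1, Col1a2, Dcn, Cdh5, Acta2 and Pdgfra had 0 counts in all libraries. Among the 17 tested Paneth cell genes 0 were called, and their median log2 fold change was -0.01.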

How the data were processed

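RNA of sorted Paneth cells from 8 mice (4 water, 4 zinc) was sequenced from TruSeq stranded mRNA libraries. The authors deposited raw counts of reads for each Ensembl gene ID in 1 table with a column for every library. The submitters' processing notes name FastQC 0.12.0, STAR 2.7.0a, DESeq2 and the build mm39; the sources used here do not give the counting program, its strand setting or the treatment of multi-mapped reads. Libraries held 20760764 to 24117111 counts, and a count of 0 was taken to allow 3 counts per library.

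Gene IDs were matched to GENCODE M39 on GRCm39 (54749 of 55414 IDs, 99.99% of counts). Genes across the whole table were filtered with edgeR 4.0.16 (filterByExpr, minimum count 10), scaled by TMM and fitted by robust quasi-likelihood with treatment as the only term (R 4.3.3). Benjamini-Hochberg adjustment covered all tested genes, and the SE is the size of the log2 fold change divided by the root of F. TPM was computed from counts and merged exon lengths. Levels and correlations were tested by exact permutation (Python 3.11.15, scipy), all two-sided. The scripts were tested on simulated data. No 2 libraries of a group agreed within sampling noise (chi-square test), so each counted as 1 replicate.

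The 6 genes and the gene lists were chosen with earlier results of these data known. All 6 are reported. Of the lists of paralogs, glycosylation genes and goblet genes, the text names the 4 with the highest mean TPM, any past the threshold and the one with the smallest p, and of each marker list of another cell type the 2 with the highest mean TPM and those with 0 counts throughout, apart from 1 gene that is not reported here. Mt1 and Mt2 checked the labels, Defa24, Lyz1 and Itln1 served as references of level, and the 3 genes most like each member were named. The text marks genes that fall outside this rule, apart from Muc6, Lgals2 levels and genes shown only in a plot.

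Alternatives were RLE factors, library totals, Defa genes left out, DESeq2 1.42.0, limma-voom (limma 3.58.1), other count filters, the replicate number as a block, other gene lengths, other denominators and each library left out in turn. Leaving out both libraries numbered 4, the share of the goblet list without Ccl6 and list counts under each alternative were added after seeing the data.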

Additional observations from a re-analysis of the deposited data

Results flagged for a closer look

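Values of the 6 genes, their summed share and the library totals were checked for single libraries far from the rest of their group, in 16 groups of 4. The check used the values without log scaling. Chance alone would mark about 1 group in 20 if the values were normally distributed, which was not tested, and 2 were marked. Zg16 in zinc replicate 4 measured 172 CPM, where the other 3 zinc libraries lay between 8.25 and 20.4 CPM. Muc2 in zinc replicate 4 measured 3085 CPM, where the other 3 lay between 2013 and 2186 CPM. Both come from the same library. In that library Clca1 was also high, at 124 CPM where the rest of the zinc group lay between 5.52 and 24.3 CPM, and the Defa share was the lowest of the 8 libraries (27.9%). Their part in these values was not tested.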

How the results depend on the processing

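None of the 6 genes was called under any of the 17 alternatives, and the log2 fold changes of Spink4 and Muc2 stayed positive in all of them. Over all genes the number called was 34 with DESeq2, 66 without the count filter, 32 with the replicate number as a block and 12 without both libraries numbered 4, against 10; leaving out 1 library gave 1 (without water replicate 2) to 15, with 3 without zinc replicate 2 and 4 without water replicate 3. Neither Mt1 nor Mt2 was called with the block, without both libraries numbered 4 or without water replicate 1, 2 or 4, and Mt1 alone was lost without water replicate 3 or zinc replicate 1 or 4. Fcgbp was -0.061 with limma-voom, -0.043 with the block and -0.081 without both libraries numbered 4. Without both libraries Agr2 was -0.10 and Zg16 -0.24. Leave-one-out ranges were -0.34 to 0.33 for Fcgbp, -0.14 to 0.35 for Agr2, -0.31 to 0.033 for Tff3 and -1.15 to 1.58 for Zg16. Spink4 ran from 0.048 without zinc replicate 1 to 0.47 without water replicate 1. Muc2 ran from 0.089 without zinc replicate 4 to 0.33 without water replicate 2. DESeq2 gave no p for Zg16. The cause of these changes was not tested.

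Without length scaling the ratios of Tff3 to Agr2 (-0.27) and Agr2 to Muc2 (-1.20) changed sign, by construction. With Defa genes out of the total the summed share was 1.67% with water and 1.89% with zinc. The number of correlated pairs was 0 without the 2 farthest libraries or both numbered 4, and 0 to 2 when 1 library was left out.

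Same-numbered libraries correlated by 0.28, 0.02, 0.13 and 0.31 in their deviations from the group means, while pairs with different numbers reached at most 0.069. Zinc replicate 2 correlated best with water replicate 3, and the labels tie no number to a shared litter or day, so the libraries were analysed as unpaired. Numbers 1, 3 and 4 give a hint from the data that pairing may hold for part of them, and the correlations between genes take the 8 libraries as unrelated. With the replicate block, Spink4 was at 0.24 on the log2 scale (edgeR adjusted p = 0.580, SE 0.10) and Zg16 at 0.12 (SE 0.33). Of the lists, the block called Muc4 and Top2a, DESeq2 and the fit without zinc replicate 1 called Sis, and the fit without the count filter called Tff1. Depth limits little here, as the rarest member had 139 counts.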

Other observations

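Retnlb, a goblet cell product that acts on bacteria, was not named by the rule and was chosen after its values were seen. It measured 93.2, 16.1, 17.5 and 5.23 CPM with water and 7.01, 3.14, 2.61 and 3.37 CPM with zinc. The difference was -3.05 on the log2 scale (edgeR adjusted p = 0.998, SE 1.01), 1 library of the water group held most of the counts, and the groups overlapped between 5.23 and 7.01 CPM.

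The stem cell gene Olfm4 measured 4082, 4703, 4667 and 5484 CPM with water and 4150, 3490, 3177 and 2799 CPM with zinc (log2 fold change -0.48, SE 0.19, edgeR adjusted p = 0.998). The cell cycle gene Top2a measured 85.2 to 119 CPM with water and 118 to 157 CPM with zinc (log2 fold change 0.43, SE 0.13, edgeR adjusted p = 0.660). Neither passed the threshold, and the groups overlapped for both. Both were chosen after their values were seen.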
